A study of Homo sapiens with 10 samples.

Results

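The clustered protocadherins make up 53 of the 18262 gene symbols with counts in both of the count tables of this series, 15 in the alpha, 16 in the beta and 22 in the gamma subcluster. They were chosen by name alone (*PCDHA1* to *PCDHAC2*, *PCDHB1* to *PCDHB16*, and the *PCDHGA*, *PCDHGB* and *PCDHGC* genes), and the rule used no measured value, although the genes were taken up with earlier results of these data known. In the RefSeq annotation of GRCh38.p14 they lie side by side on chromosome 5, at chr5:140786140-141512975, a stretch of 726.8 kb. All libraries came from T47D, an established human breast cancer cell line of luminal, hormone receptor positive type. RNA-seq was done 72 h after transfection with control siRNA, with an siRNA against *TRPS1* or with an siRNA against *CHD4*, in 2 libraries each. *TRPS1* encodes a GATA-type zinc finger repressor, and *CHD4* the ATPase of the NuRD chromatin remodeling complex. Chromatin of the same line was immunoprecipitated with TRPS1 antibodies in 2 libraries beside 2 input libraries. A single line was used, the labels and the RNA interference methods name an siRNA for *CHD4* where the RNA-seq methods name an shRNA, and nothing states that the replicates were separate cultures, so that p-values here measure the spread between these libraries.

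Clustered protocadherins are cell adhesion molecules of the cadherin superfamily, known best from neurons, where each cell switches on its own small set of promoters and like sets on touching membranes recognize each other. Every alpha and gamma gene has its own variable first exon, which codes for the cadherin repeats, the membrane span and a short tail, and is spliced to constant exons shared by the whole subcluster. Beta genes are single exons without constant exons. The C-type genes (*PCDHAC1*, *PCDHAC2*, *PCDHGC3*, *PCDHGC4* and *PCDHGC5*) sit at the end of their subclusters and are less subject to choice between cells. Nearly all of the promoters carry a conserved element ending in the bases CGCT, to which CTCF binds, and CTCF and cohesin loop the promoters to distant enhancers. In epithelial tumors parts of the locus are known to be silenced by DNA methylation. Because alpha genes share their 3' exons with each other, as gamma genes do, and neither the strand nor the overlap mode of the counting is given in the sources used here, how reads in the shared exons were assigned is unknown, and counts of single alpha and gamma genes are uncertain to that extent.

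The promoter elements are shown first, as located with separate search words for each subcluster. A RefSeq window of 250 bases before to 50 after the gene start was at hand for 47 of the 53 members. *PCDHA3*, *PCDHA13*, *PCDHB6*, *PCDHB11*, *PCDHGA12* and *PCDHGC5* had none. Below, the capitals mark the last bases of the element, CGCT or its counterpart, with 20 bases before and 10 after, on the plus strand of GRCh38.p14.
*PCDHA1* at chr5:140786082-140786115: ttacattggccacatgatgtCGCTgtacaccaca
*PCDHA5* at chr5:140821538-140821571: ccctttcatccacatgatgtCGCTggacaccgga
*PCDHA8* at chr5:140841126-140841159: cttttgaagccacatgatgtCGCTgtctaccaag
*PCDHA9* at chr5:140848283-140848316: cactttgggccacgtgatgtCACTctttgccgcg
*PCDHA11* at chr5:140868879-140868912: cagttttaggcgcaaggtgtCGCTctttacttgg
*PCDHB2* at chr5:141094540-141094573: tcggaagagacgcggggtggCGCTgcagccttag
*PCDHB8* at chr5:141177773-141177806: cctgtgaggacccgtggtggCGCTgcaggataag
*PCDHB13* at chr5:141213861-141213894: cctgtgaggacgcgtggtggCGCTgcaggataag
*PCDHGB3* at chr5:141370158-141370191: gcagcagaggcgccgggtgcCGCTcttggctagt
*PCDHGB5* at chr5:141397859-141397892: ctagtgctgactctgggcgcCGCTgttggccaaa
*PCDHGC3* at chr5:141475876-141475909: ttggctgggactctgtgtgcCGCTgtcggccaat

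The last bases are alike in all 3 subclusters and the bases before them differ. The words counted next, over all windows, were picked after looking at these sequences, and each was looked for on both strands. GATGTCGCT was in the windows of 9 of 13 alpha members, of 0 of 14 beta and of 0 of 20 gamma members, and in 0.105% of all 35116 RefSeq windows. GGTGGCGCT was in 13 of 14 beta windows and in no alpha or gamma window, against 0.501% of all windows. GCGCCGCTG was in 10 of 20 gamma windows and in no alpha or beta window, against 1.28% of all windows. *PCDHA9* has CACT at the place of CGCT and was the only one of the 47 members whose window held no CGCT on either strand, but CGCT is a short word found in 70.0% of all windows. TRPS1 is known to recognize GATA words. These were searched as the word AGATAA or, with another last base, AGATAG, and as the word TGATAA or, likewise, TGATAG. At least 1 of the words was in the windows of 20 of 47 members, 2 of 13 alpha, 7 of 14 beta and 11 of 20 gamma, against 25.0% of all windows. A match of letters is a description and not a bound site.

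The TRPS1 peak list holds 1844 peaks, and 3 of them lie in the protocadherin locus, 2 in the alpha subcluster, 1 in the beta subcluster and 0 in the gamma subcluster. On the hg38 build of the peak list they are at chr5:140822052-140822422 (371 bp), chr5:140869423-140869631 (209 bp) and chr5:141199591-141199797 (207 bp). The first begins 439 bp after the RefSeq start of *PCDHA5*, the second 466 bp after that of *PCDHA11*, and the third overlaps the start of *PCDHB11*. The next nearest member starts were those of *PCDHA6* (5538 bp), *PCDHA12* (5677 bp) and *PCDHB10* (7238 bp). Both alpha peaks also lie inside the spans of members that start further upstream, since all alpha genes run to the same end, 5 spans for the first peak and 11 for the second, and exon boundaries were not used here. The peaks nearest to the locus on either side were 1638 and 1670 kb away. Against a median width of 288.0 bp in the list, the *PCDHB11* and *PCDHA11* peaks were narrow, with 4.12% and 5.37% of the list at or below their widths, and the *PCDHA5* peak was wider than the median, with 76.5% at or below. The labels name the same list for both ChIP libraries, so no peak has a replicate error. The study's methods do not say how the replicates and inputs were combined.

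**Figure D1:**
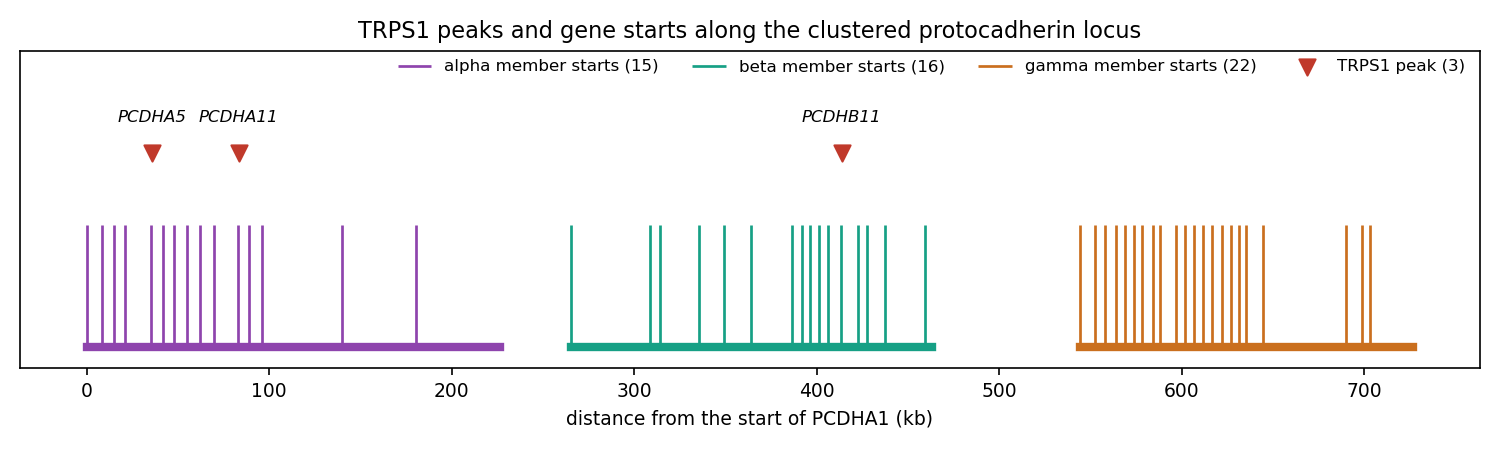
Map of the locus, with the distance from the start of *PCDHA1* in kb on the horizontal axis. Vertical lines are the RefSeq starts of the 15 alpha, 16 beta and 22 gamma members, thick lines the extent of each subcluster, and triangles the 3 TRPS1 peaks, named by the nearest start: 2 fall in the alpha and 1 in the beta subcluster, and none in the gamma subcluster.

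The windows before the starts of the bound alpha genes are shown because the peaks lie just downstream of them, with none of their bases in the window. Capitals mark CGCT and the GATA words named above, on either strand.
*PCDHA5* at chr5:140821363-140821662, plus strand: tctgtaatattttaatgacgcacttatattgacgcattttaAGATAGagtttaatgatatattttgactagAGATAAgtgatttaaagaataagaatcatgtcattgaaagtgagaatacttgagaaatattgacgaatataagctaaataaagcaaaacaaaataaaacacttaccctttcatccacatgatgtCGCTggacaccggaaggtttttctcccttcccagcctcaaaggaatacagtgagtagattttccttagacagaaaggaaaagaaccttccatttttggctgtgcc
*PCDHA11* at chr5:140868707-140869006, plus strand: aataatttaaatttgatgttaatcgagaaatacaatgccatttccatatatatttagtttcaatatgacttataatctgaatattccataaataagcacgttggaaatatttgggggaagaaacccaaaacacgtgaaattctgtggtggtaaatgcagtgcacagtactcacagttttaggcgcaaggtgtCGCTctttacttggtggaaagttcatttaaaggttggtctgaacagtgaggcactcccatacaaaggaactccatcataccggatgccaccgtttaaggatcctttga
The *PCDHA5* window held both AGATAG and AGATAA upstream of the CGCT element, and the *PCDHA11* window held none of the GATA words. For the third peak, which overlaps the start of *PCDHB11*, no window sequence was at hand.

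Totals ranged from 10333138 to 14668358 counts per RNA-seq library, of which 5738 to 9710 were counts of members. Levels are given as CPM, a gene's counts scaled to a common library size, after TMM scaling over the 6 libraries. *TRPS1* stood at 1418 and 2323 CPM in the control libraries and at 1149 and 727 upon silencing *TRPS1* (log2 fold change -0.97 ± 0.39 SE, edgeR adjusted p = 0.659), and *CHD4* at 295 and 292 CPM in the control libraries and at 96.2 and 54.2 upon silencing *CHD4* (-1.96 ± 0.42, adjusted p = 0.784). Both targeted genes were lower in both of their silenced libraries. Of the marker lists, all 9 luminal markers were present (summed level 11716 to 14434 CPM in control libraries, 6157 to 6278 upon silencing *TRPS1*, 5302 to 7109 upon silencing *CHD4*), and 2 and 3 of them, keratins, were called lower. The basal keratins *KRT5* and *KRT14* had at most 6 counts in any library. The basal list of 4, carried by *ACTA2* and *MYLK*, summed to 23.9 to 24.7 CPM in control libraries, 36.5 to 44.9 upon silencing *TRPS1* and 42.7 to 43.5 upon silencing *CHD4*. Of the neuron list of 5, 3 were in the tables, at 17.5 to 29.1, 21.1 to 32.3 and 14.7 to 19.4 CPM in the same order, nearly all of it *SYT1*, while *RBFOX3* and *ELAVL3* had at most 16 and 4 counts. The glia list of 3 summed to 0.0719 to 0.309, 0.463 to 1.04 and 0.960 to 2.06 CPM, and the endothelium list of 3 to 0.0719 to 0.0772, 0.265 to 0.567 and 0.640 to 1.41 CPM. The fibroblast list of 5, nearly all *COL1A1*, and the immune list of 4, with *PTPRC* and *CD3E* at 3 counts or fewer, overlapped between the groups. The part of these shifts in the protocadherin values was not tested.

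Control siRNA replicate 1 stood apart from the other 5 libraries. It had 0 counts for *PCDHA8*, *PCDHA9*, *PCDHA10*, *PCDHA12*, *PCDHA13*, *PCDHB4* and *PCDHGA12*, each of which had at least 10 counts in every other library, and also for *PCDHB1* and *PCDHGA3*. A count of 0 there allows a level of up to 0.216 CPM (3 counts, counting error only). Over all genes, 287 of the 13226 with at least 10 counts in each other library were at 0 in it (2.17%), whereas each of the other libraries had at most 1 such gene. Of the 53 members, 31 were lowest of all 6 libraries in control siRNA replicate 1 (13 of 15 alpha, 4 of 16 beta, 14 of 22 gamma), and 8 were highest there (0 alpha, 5 beta, 3 gamma). Spearman's rho over the 53 member levels lay between 0.841 and 0.898 for this library against each other one, and between 0.943 and 0.968 among the other 5. Because both comparisons with control siRNA use this library, log2 fold changes of members are also given without it.

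Nearly the whole locus was read in T47D. At the threshold of 2 CPM, 30 to 49 members were detected per library, the 30 in control siRNA replicate 1 and 44 to 49 in each of the others. *PCDHB1* had at most 1 count in any library. Levels of different genes are compared only among the beta genes, whose RefSeq span was taken as their single exon, without exon boundaries to check it. Per kb of that span *PCDHB8* led with a mean over the 6 libraries of 13.2 ± 3.36 CPM per kb (SD, n = 6), followed by *PCDHB13* (6.77 ± 1.53), *PCDHB2* (6.76 ± 1.21), *PCDHB5* (5.89 ± 1.17) and *PCDHB6* (5.50 ± 1.96). *PCDHB8* stood above *PCDHB13* by more than the SD of either, although its lowest library (8.46) was below the highest of *PCDHB13* (9.19). The SD runs over the libraries of all groups. In CPM without the span both genes were close (means 36.3 and 34.2), so the lead rests on RefSeq spans of 2750 and 5061 bp. Among *PCDHB13*, *PCDHB2*, *PCDHB5* and *PCDHB6*, no gene differed from the next in this order by more than the SD. At the other end *PCDHB4* (0.304 ± 0.166) and *PCDHB1* (0.00526 ± 0.00581) were lowest. As *PCDHB8* and other beta genes are close copies of each other, reads that fit several of them are a further uncertainty.

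**Figure D2:**
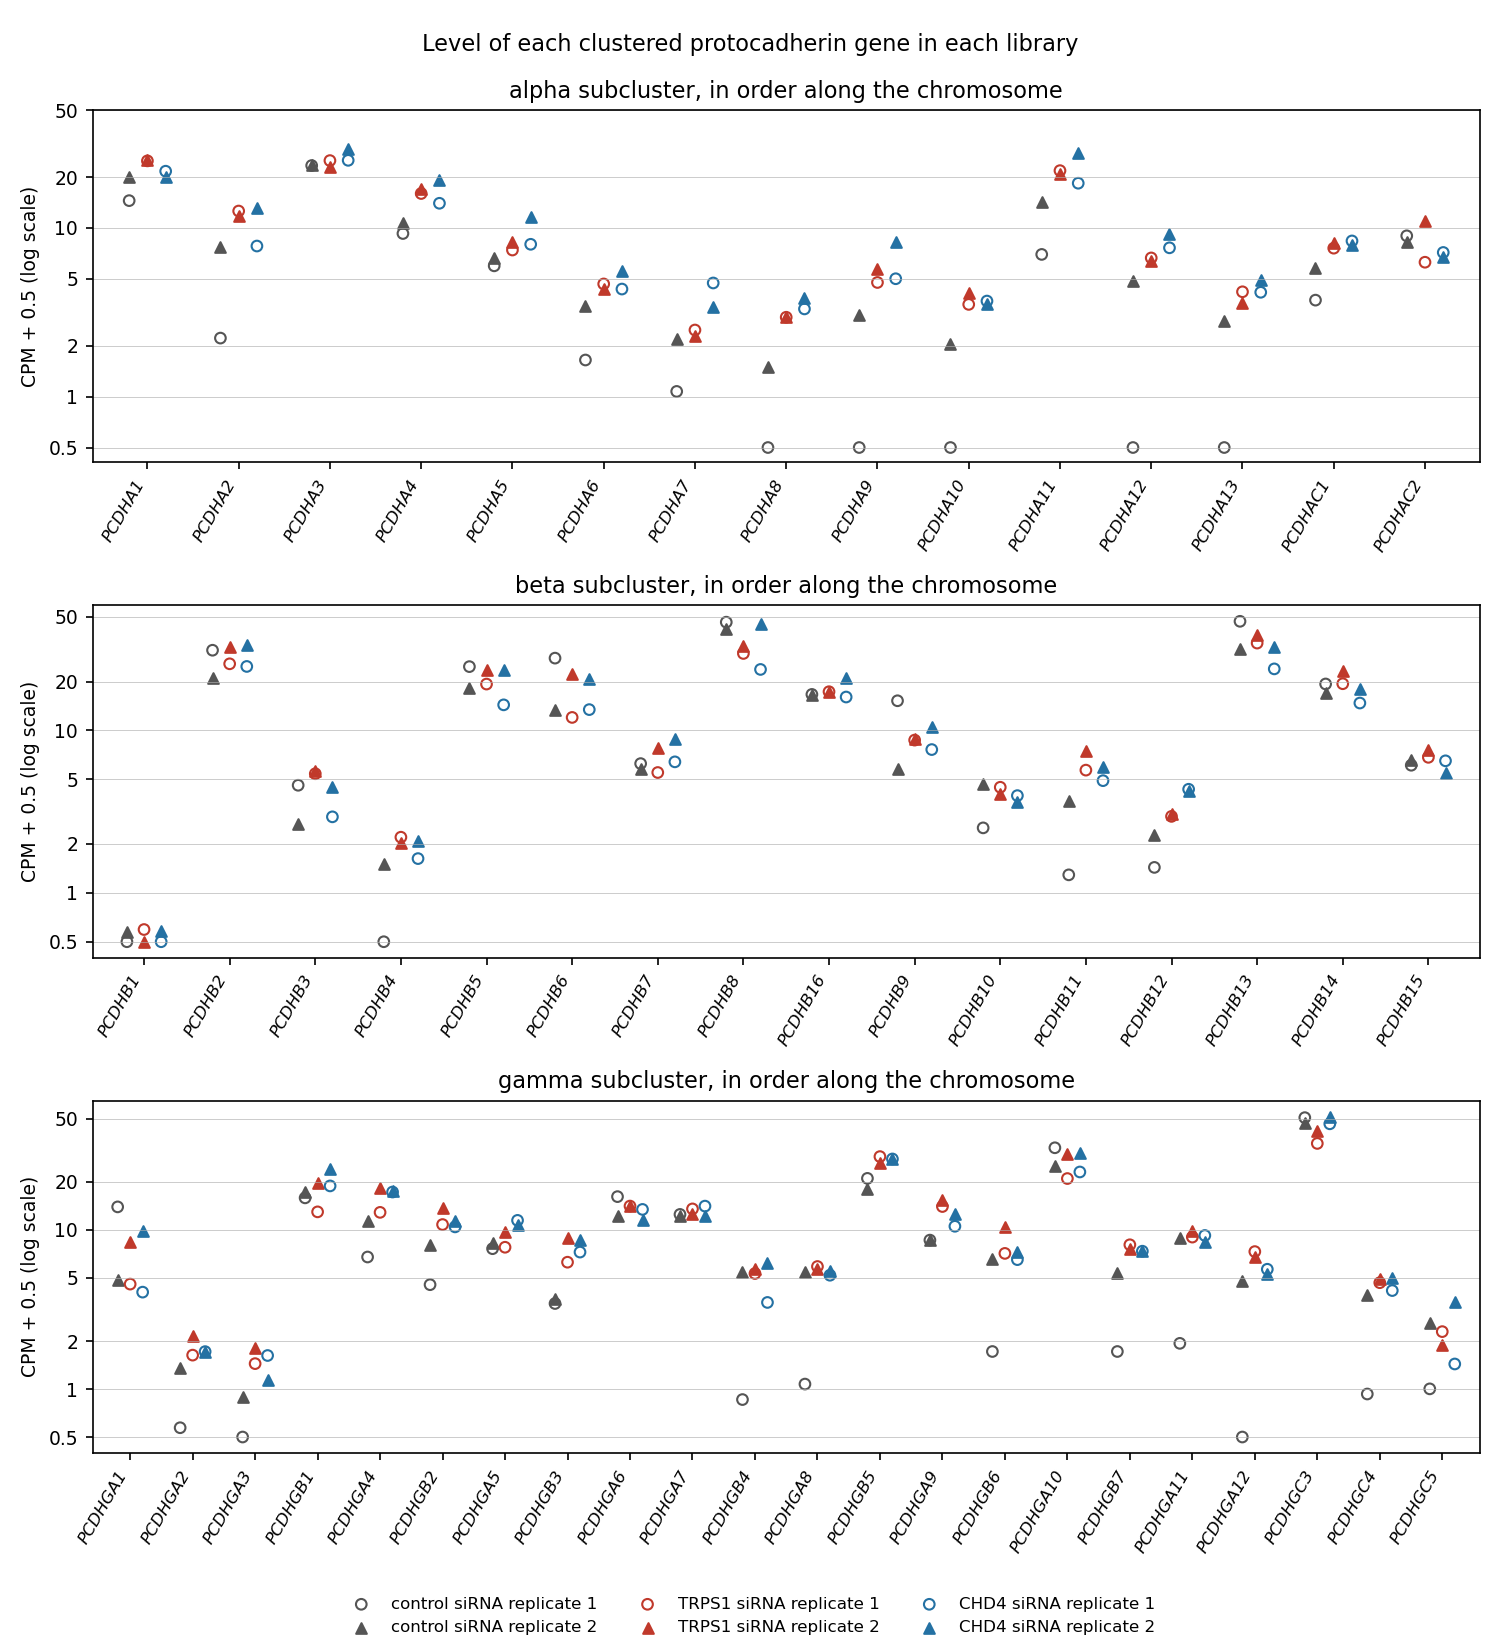
Level of each of the 53 members in each of the 6 RNA-seq libraries as CPM + 0.5 on a log scale, by subcluster and in order along the chromosome. Open circles are replicate 1 and triangles replicate 2 of control siRNA (gray), TRPS1 siRNA (red) and CHD4 siRNA (blue). The open gray circles at 0.5 are members with 0 counts in control siRNA replicate 1, and in the alpha panel 13 of 15 members have that library at the bottom.

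Summed over their members, the alpha and gamma genes stood higher in both knockdowns, and the direction of the beta genes depended on the control library. The summed alpha level was 72.8 and 109 CPM in the control libraries, 143 and 148 CPM upon silencing *TRPS1* and 136 and 167 CPM upon silencing *CHD4*. All 4 knockdown libraries lay above both control libraries, with ratios of the means of 1.60 and 1.66, or 1.33 and 1.39 against control siRNA replicate 2 alone. For the beta genes the sums were 244 and 186 CPM in the control libraries, 193 and 230 CPM upon silencing *TRPS1* and 162 and 232 CPM upon silencing *CHD4*, and the groups overlapped. The ratios of the beta means were 0.985 and 0.918, but 1.14 and 1.06 against control siRNA replicate 2 alone, which both *TRPS1* siRNA libraries and 1 *CHD4* siRNA library exceeded. The gamma genes summed to 194 and 210 CPM in the control libraries, 223 and 265 CPM upon silencing *TRPS1* and 240 and 268 CPM upon silencing *CHD4*, with no overlap and ratios of 1.21 and 1.26, or 1.16 and 1.21 against control siRNA replicate 2 alone. In bulk RNA fewer cells using a promoter and less RNA per cell cannot be told apart. No p is given for sums over members chosen with earlier results known, and an exact permutation test of 2 against 2 libraries cannot go below 0.3333.

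**Figure D3:**
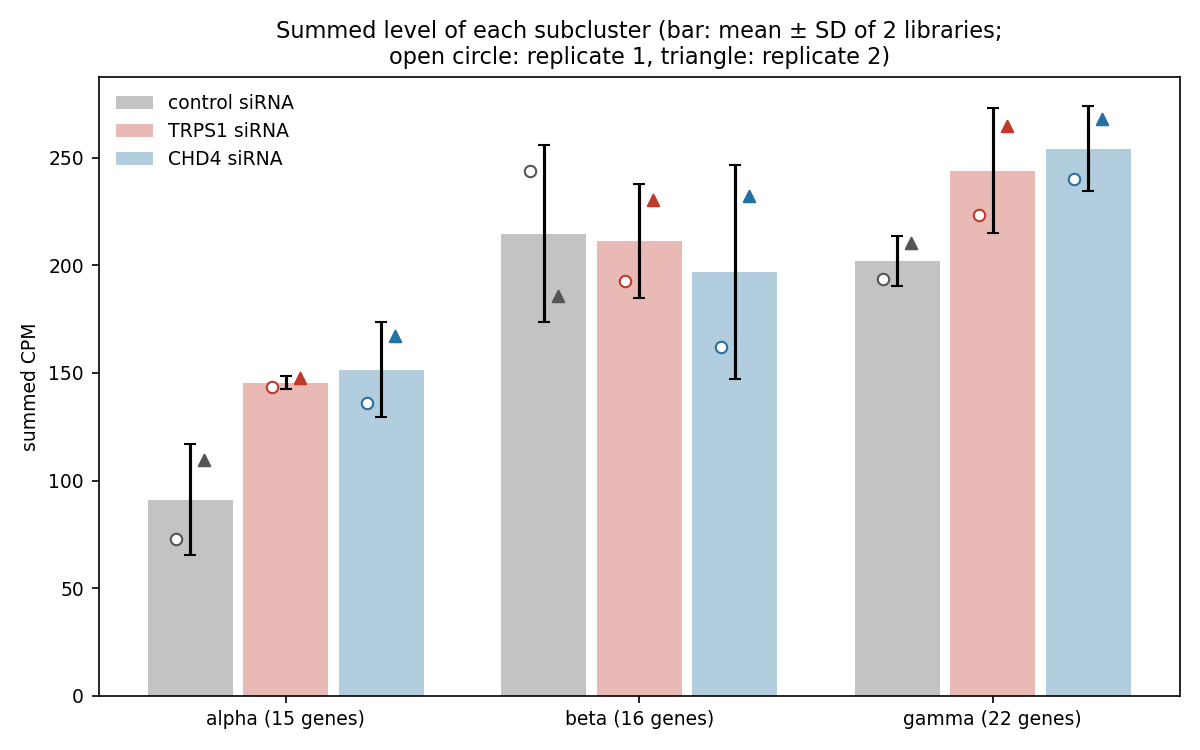
Summed CPM of the alpha, beta and gamma members in each library, on an axis that starts at 0. Bars are means and error bars the SD of 2 libraries, open circles replicate 1 and triangles replicate 2. The alpha sums of the knockdown libraries (136 to 167 CPM) lie above those of the control libraries (72.8 and 109 CPM), whereas the beta sums overlap.

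Upon silencing *TRPS1* no clustered protocadherin passed the threshold of a fold change over 2 at an unadjusted p under 0.05 in edgeR's quasi-likelihood F-test, although most alpha and gamma genes stood higher. Of the 53 members, 47 passed the filter of over 2 CPM (by library size, without TMM factors) in at least 2 of the 4 libraries and were tested. None rose or fell at the threshold, where 2.70% of the 12921 genes tested rose and 3.17% fell (349 and 410 genes, or 490 and 253 with library sizes alone), and no gene at all reached an adjusted p under 0.05. At an unadjusted p under 0.05 alone the count of members was also 0. DESeq2 called 0 members, where it called 366 of the 12921 genes higher and 588 lower. With edgeR's likelihood ratio test 2 members were called higher, *PCDHA11* and *PCDHB11*, where 471 genes were called higher and 564 lower. The median log2 fold change of the members tested was 0.68 against -0.02 over all genes tested, and 0.72 over all 53 members without a filter, against 0.13 over all genes. By subcluster it was 1.03 for 14 alpha genes, 0.17 for 14 beta genes and 0.85 for 19 gamma genes. Without control siRNA replicate 1 the medians were 0.49 over all members tested, 0.55 for alpha, 0.33 for beta and 0.38 for gamma, with 0.02 over all genes. A member that passed the filter only through the libraries where it is high had to differ, so these medians describe the genes tested and no more.

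A log2 fold change above 0 was found for 38 of the 47 members (14 of 14 alpha, 10 of 14 beta, 14 of 19 gamma) where 48.5% of all genes tested had one, and for 43 of 47 without control siRNA replicate 1, where 51.4% did. A fold change over 2 upward, whatever its p, was found for 14 members (7 alpha, 1 beta, 6 gamma). Over all genes 7.70% had one. Most of the 14 were under a fold change of 2 without control siRNA replicate 1. *PCDHA8* and *PCDHA10*, both among the 14, and *PCDHB12* passed the filter only through the *TRPS1* siRNA libraries, where they are high. Their part in the counts of this paragraph supports nothing. Both silenced libraries lay above both control libraries for 30 members and below both for 2 (*PCDHB8* and *PCDHGC3*), against 21.5% and 22.5% of all genes. Against control siRNA replicate 2 alone, a count added for both comparisons after the data were seen, 35 of 47 were higher in both silenced libraries and 3 lower, where 37.6% and 43.4% of all genes were. Leaving out control siRNA replicate 1 gave 4 calls, *PCDHA8*, *PCDHA10*, *PCDHB3* and *PCDHGB3*, all higher, where 5.71% of all genes were called higher and 2.40% lower. Leaving out control siRNA replicate 2 instead left the library with the zeros as the only control. The median log2 fold change of the members tested was then 0.80, against 0.03 over all genes. In both of these fits the lone control library is assumed to vary like the others.

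Among the members at a TRPS1 peak, *PCDHA11* stood at 6.47 and 13.7 CPM in the control libraries, 21.4 and 20.4 CPM upon silencing *TRPS1* and 17.9 and 27.4 CPM upon silencing *CHD4*. All 4 knockdown libraries were above both control libraries. The log2 fold change was 1.08 ± 0.48 (SE, adjusted p = 0.659) upon silencing *TRPS1* and 1.19 ± 0.52 (adjusted p = 0.792) upon silencing *CHD4*, and 0.66 and 0.78 without control siRNA replicate 1. *PCDHB11*, whose start lies under the third peak, had 0.791 and 3.17 CPM in the control libraries, 5.20 and 6.95 CPM upon silencing *TRPS1* and 4.41 and 5.44 CPM upon silencing *CHD4*. It too was lowest in both control libraries, with log2 fold changes of 1.65 ± 0.77 (adjusted p = 0.659) and 1.34 ± 0.81 (adjusted p = 0.797), and of 0.99 and 0.69 without control siRNA replicate 1. *PCDHA5* had 5.46 and 6.18 CPM in the control libraries, 6.90 and 7.74 CPM upon silencing *TRPS1* and 7.50 and 11.1 CPM upon silencing *CHD4*. Its groups did not overlap either, with smaller log2 fold changes of 0.34 ± 0.48 (adjusted p = 0.822) and 0.69 ± 0.53 (adjusted p = 0.798), and of 0.29 and 0.64 without control siRNA replicate 1. With a single line and 3 bound members, bound and unbound members were not tested against each other.

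*PCDHA1* and *PCDHA3* gave the most reads of the alpha genes beside *PCDHA11*, and neither passed the threshold. *PCDHA1* had 14.0 and 19.5 CPM in the control libraries, 24.5 and 24.9 CPM upon silencing *TRPS1* and 21.2 and 19.4 CPM upon silencing *CHD4*. It was above both control libraries in the *TRPS1* siRNA libraries (log2 fold change 0.57 ± 0.38, adjusted p = 0.677) and overlapped them in the *CHD4* siRNA libraries (0.29 ± 0.42, adjusted p = 0.877), with 0.38 and 0.11 without control siRNA replicate 1. *PCDHA3* had 22.9 and 23.1 CPM in the control libraries, 24.6 and 22.6 CPM upon silencing *TRPS1* and 24.7 and 29.0 CPM upon silencing *CHD4*, overlapping in the first comparison (0.05 ± 0.36, adjusted p = 0.969) and above both control libraries in the second (0.23 ± 0.39, adjusted p = 0.895), with 0.08 and 0.27 without that library. The C-type alpha genes differed in order. *PCDHAC1* had 3.24 and 5.33 CPM in the control libraries, 7.09 and 7.61 CPM upon silencing *TRPS1* and 7.88 and 7.44 CPM upon silencing *CHD4*, without overlap (0.80 ± 0.53, adjusted p = 0.681, and 0.85 ± 0.58, adjusted p = 0.798), with 0.51 and 0.57 without that library. *PCDHAC2* had 8.48 and 7.72 CPM in the control libraries, 5.77 and 10.5 CPM upon silencing *TRPS1* and 6.66 and 6.24 CPM upon silencing *CHD4*. It overlapped in the first comparison (0.02 ± 0.51, adjusted p = 0.992) and lay below both control libraries in the second (-0.32 ± 0.52, adjusted p = 0.889), with 0.13 and -0.21 without that library.

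Among the larger alpha fold changes were those of genes at 0 in control siRNA replicate 1, named here after their values were seen. *PCDHA8* had 0 and 1.00 CPM in the control libraries, 2.46 and 2.45 CPM upon silencing *TRPS1* and 2.81 and 3.36 CPM upon silencing *CHD4*. Its log2 fold changes of 2.32 ± 1.29 (adjusted p = 0.664) and 2.64 ± 1.28 (adjusted p = 0.792) were 1.32 and 1.66 without control siRNA replicate 1, where it passed the threshold in both comparisons. *PCDHA9* had 0 and 2.55 CPM in the control libraries, 4.25 and 5.23 CPM upon silencing *TRPS1* and 4.50 and 7.76 CPM upon silencing *CHD4*. Without that library its log2 fold changes of 1.93 ± 1.39 and 2.30 ± 1.36 were 0.94 and 1.32, the second past the threshold. *PCDHA10* had 0 and 1.54 CPM in the control libraries, 3.02 and 3.64 CPM upon silencing *TRPS1* and 3.19 and 3.04 CPM upon silencing *CHD4*. Its log2 fold changes were 2.14 ± 1.34 and 2.04 ± 1.32, and without that library 1.15, past the threshold, and 1.06. For these 3 genes the other control library was also below all 4 knockdown libraries. *PCDHA8* and *PCDHA10* passed the filter only through the knockdown libraries, where they are high, so that they had to differ and their calls support nothing.

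**Figure D4:**
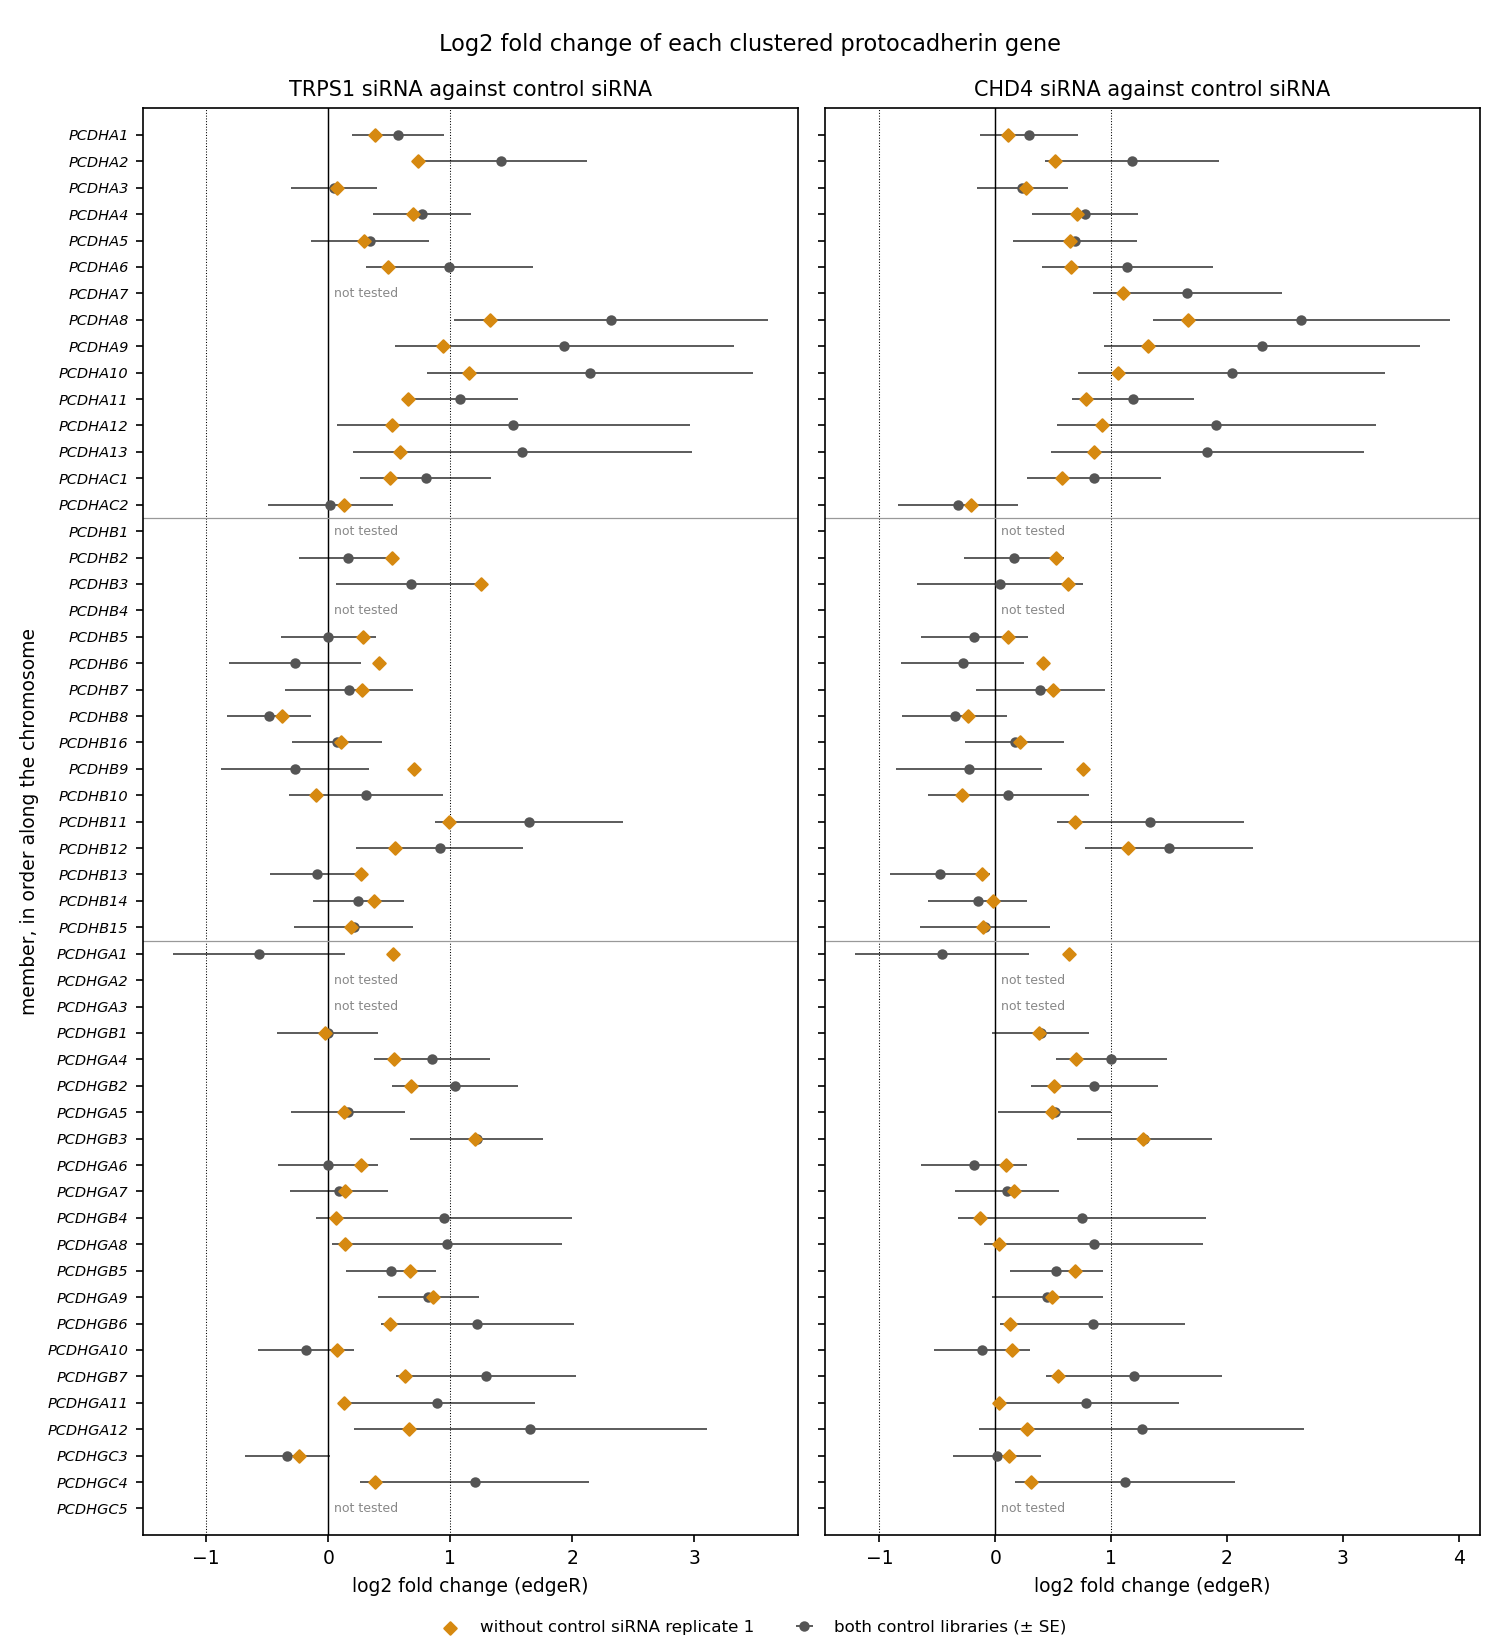
Log2 fold change of each member in order along the chromosome, upon silencing *TRPS1* (left) and *CHD4* (right) against control siRNA. Gray points with bars are edgeR estimates ± SE with both control libraries, orange diamonds the estimates without control siRNA replicate 1, dotted lines a fold change of 2 in either direction. The alpha genes lie mostly right of 0 with either set of controls, and the widest bars belong to members with 0 counts in control siRNA replicate 1.

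The beta genes with the most reads overlapped the control libraries in all but 1 comparison, and for *PCDHB2* and *PCDHB13* the values turned on control siRNA replicate 1. *PCDHB8* had 45.9 and 41.6 CPM in the control libraries, 29.3 and 32.7 CPM upon silencing *TRPS1* and 23.3 and 45.0 CPM upon silencing *CHD4*. It was below both control libraries in the *TRPS1* siRNA libraries (log2 fold change -0.49 ± 0.35, adjusted p = 0.693) and overlapped them in the *CHD4* siRNA libraries (-0.35 ± 0.45, adjusted p = 0.860), with -0.38 and -0.23 without control siRNA replicate 1. *PCDHB13* had 46.5 and 31.0 CPM in the control libraries, 34.0 and 38.4 CPM upon silencing *TRPS1* and 23.4 and 32.0 CPM upon silencing *CHD4*, overlapping throughout (-0.09 ± 0.39, adjusted p = 0.943, and -0.48 ± 0.43, adjusted p = 0.818), with 0.27 and -0.11 without that library. *PCDHB2* had 30.7 and 20.6 CPM in the control libraries, 25.2 and 32.1 CPM upon silencing *TRPS1* and 24.3 and 32.9 CPM upon silencing *CHD4*, again with overlap (0.16 ± 0.40, adjusted p = 0.899, and 0.16 ± 0.43, adjusted p = 0.938), with 0.52 in both comparisons without that library. *PCDHB3*, named after its values were seen, had 4.10 and 2.16 CPM in the control libraries, 4.91 and 5.09 CPM upon silencing *TRPS1* and 2.44 and 4.0 CPM upon silencing *CHD4*. Its log2 fold change upon silencing *TRPS1* was 0.68 ± 0.61 with both control libraries and 1.25, past the threshold, without replicate 1, and upon silencing *CHD4* the groups overlapped (0.04 ± 0.72, and 0.63 without replicate 1).

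Among the gamma genes *PCDHGC3*, a C-type gene known to be used widely outside neurons as well, gave the most reads. It had 50.2 and 46.2 CPM in the control libraries, 34.4 and 41.4 CPM upon silencing *TRPS1* and 45.9 and 51.0 CPM upon silencing *CHD4*. The *TRPS1* siRNA libraries were the lowest (log2 fold change -0.34 ± 0.35, adjusted p = 0.762), and the *CHD4* siRNA libraries overlapped the control libraries (0.01 ± 0.38, adjusted p = 0.994), with -0.24 and 0.12 without control siRNA replicate 1. *PCDHGA10* had 32.3 and 24.6 CPM in the control libraries, 20.5 and 29.4 CPM upon silencing *TRPS1* and 22.6 and 29.8 CPM upon silencing *CHD4*, overlapping in both comparisons (-0.18 ± 0.40, adjusted p = 0.886, and -0.11 ± 0.41, adjusted p = 0.954), and turned to 0.07 and 0.14 without that library. *PCDHGB5* had 20.6 and 17.5 CPM in the control libraries, 28.4 and 25.7 CPM upon silencing *TRPS1* and 27.4 and 27.3 CPM upon silencing *CHD4*. All 4 knockdown libraries were above both control libraries, with log2 fold changes of 0.52 ± 0.37 (adjusted p = 0.693) and 0.53 ± 0.40 (adjusted p = 0.798), and of 0.67 and 0.69 without that library.

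*PCDHGB3*, named after its values were seen, was the member past the threshold in both comparisons when control siRNA replicate 1 was left out, together with *PCDHA8*, and unlike *PCDHA8* its control libraries were alike. It had 2.95 and 3.17 CPM in the control libraries (41 counts in each), 5.77 and 8.34 CPM upon silencing *TRPS1* and 6.75 and 8.08 CPM upon silencing *CHD4*. The log2 fold changes were 1.22 ± 0.55 (adjusted p = 0.659) and 1.29 ± 0.59 (adjusted p = 0.792), and 1.20 and 1.28 without control siRNA replicate 1. The remaining C-type gamma genes were low. *PCDHGC4* had 0.431 and 3.40 CPM in the control libraries, 4.16 and 4.43 CPM upon silencing *TRPS1* and 3.66 and 4.48 CPM upon silencing *CHD4*. Its log2 fold changes of 1.20 ± 0.94 (adjusted p = 0.705) and 1.12 ± 0.95 (adjusted p = 0.806) were 0.38 and 0.31 without control siRNA replicate 1. *PCDHGC5* had 0.503 and 2.09 CPM in the control libraries, 1.80 and 1.39 CPM upon silencing *TRPS1* and 0.938 and 3.04 CPM upon silencing *CHD4*, overlapped throughout and was not tested, since before TMM scaling it exceeded 2 CPM in at most 1 library of a comparison.

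Upon silencing *CHD4* most alpha and gamma genes again stood higher without passing the threshold. The same control libraries served both comparisons, so their values are set side by side and not taken as separate evidence. Of the 53 members 48 were tested, and none rose or fell at the threshold, where 2.60% of the 12918 genes tested rose and 2.85% fell (336 and 368 genes, or 458 and 222 with library sizes alone). At an unadjusted p under 0.05 the quasi-likelihood F-test counted 0 members. DESeq2 called 1, *PCDHA11*, where it called 351 of the 12918 genes higher and 522 lower. The likelihood ratio test called 4, *PCDHA7*, *PCDHA8*, *PCDHA11* and *PCDHGB3*, where it called 430 genes higher and 494 lower. *PCDHA7* and *PCDHA8* passed the filter only through the *CHD4* siRNA libraries, where they are high, so that their calls support nothing. The median log2 fold change was 0.61 against -0.02 over all genes, and 0.67 over all 53 members without a filter against 0.13. It was 1.18 for 15 alpha genes, -0.02 for 14 beta genes and 0.75 for 19 gamma genes. Without control siRNA replicate 1 these were 0.50 over all members tested, 0.71 for alpha, 0.31 for beta and 0.31 for gamma, against 0.01 over all genes. A log2 fold change above 0 was found for 14 of 15 alpha, 7 of 14 beta and 16 of 19 gamma genes, where 48.5% of all genes tested had one. A fold change over 2 upward, whatever its p, was found for 16 members (9 alpha, 2 beta, 5 gamma). Over all genes 6.89% had one. Most of the 16 were under a fold change of 2 without control siRNA replicate 1. *PCDHA7*, *PCDHA8*, *PCDHA10* and *PCDHB12*, all among the 16, passed the filter only through the *CHD4* siRNA libraries. Their part in the counts of this paragraph supports nothing. For 26 members each *CHD4* siRNA library was above each control library, and for 1, *PCDHAC2*, each was below, against 18.8% and 20.7% of all genes. Against control siRNA replicate 2 alone 31 of 48 were higher in both and 3 lower, where 34.8% and 42.0% of all genes were. Leaving out control siRNA replicate 1 gave 3 calls, *PCDHA8*, *PCDHA9* and *PCDHGB3*, all higher, where 5.68% of all genes were called higher and 2.06% lower. Leaving out control siRNA replicate 2 instead left the library with the zeros as the only control. The median log2 fold change of the members tested was then 0.72, against 0.03 over all genes.

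The knockdowns were then compared with each other, without the control libraries. Of 48 members tested none differed at the threshold, where 2.12% of the 13143 genes tested were higher with *CHD4* siRNA and 1.56% lower. The quasi-likelihood F-test counted 0 members at an unadjusted p under 0.05, DESeq2 0 and the likelihood ratio test 1. With the replicate number as a block the F-test counted 6, at fold changes under 2, with no share of all genes counted. The median log2 difference (*CHD4* siRNA minus *TRPS1* siRNA) was 0.01 over the members and -0.00 over all genes, with 0.16 for alpha, -0.09 for beta and -0.08 for gamma genes, and it was above 0 for 25 of the 48 members, where 49.8% of all genes were. In all, 7 members did not overlap on the higher side and 11 on the lower, against 23.1% and 23.7% of all genes. The largest difference was that of *PCDHA7*, named after its values were seen, with 1.98 and 1.79 CPM upon silencing *TRPS1* and 4.22 and 2.88 CPM upon silencing *CHD4* (0.91 ± 0.38, adjusted p = 0.330). In the control libraries it had 0.575 and 1.70 CPM, and too few of these and the *TRPS1* siRNA libraries passed the filter for a test between them. *PCDHGC3* was higher in both *CHD4* siRNA libraries (0.35 ± 0.17, adjusted p = 0.399). The bound genes *PCDHA5* (0.35 ± 0.29, adjusted p = 0.627), *PCDHA11* (0.12 ± 0.25, adjusted p = 0.870) and *PCDHB11* (-0.30 ± 0.30, adjusted p = 0.701) overlapped between the knockdowns. A p that misses the threshold does not show that the knockdowns act alike.

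The relatives and neighbors of the clusters were examined too. Of 12 non-clustered protocadherins, encoded outside the locus, only *PCDH1*, *PCDH7*, *PCDH12* and *PCDH20* exceeded 2 CPM in any library. Of these, 3 were tested upon silencing *TRPS1* with 1 call, 2 upon silencing *CHD4* with none, and 3 between the knockdowns with 1 call. *PCDH7* had 14 and 12 counts in the control libraries and 57 and 31 upon silencing *TRPS1*, and was called higher there (log2 fold change 1.94 ± 0.76, adjusted p = 0.659). It passed the filter only through the *TRPS1* siRNA libraries, where it is high, so that it had to differ and its call supports nothing. *PCDH20* passed the threshold with *CHD4* siRNA against *TRPS1* siRNA (1.71 ± 0.33, adjusted p = 0.116). Of 13 genes flanking the clusters on chromosome 5, 13 were tested upon silencing *TRPS1* and 12 upon silencing *CHD4*, and none passed the threshold in either comparison, with median log2 fold changes of 0.21 and -0.11. Between the knockdowns 1 of them did, *RELL2* (1.38 ± 0.24, adjusted p = 0.103, higher with *CHD4* siRNA). *SLC25A2*, which lies between the beta and gamma subclusters, had 0 counts in control siRNA replicate 1 like the 7 members above, and 15 to 33 counts in the other libraries.

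Of 18 factors known to act on the promoters and enhancers of the locus, all were tested and none passed the threshold in any of the 3 comparisons. *CTCF*, which binds the promoter elements, had 93.2 and 75.4 CPM in the control libraries, 74.6 and 78.5 CPM upon silencing *TRPS1* and 82.6 and 92.3 CPM upon silencing *CHD4*, and both knockdowns overlapped the control libraries. *DNMT1*, the maintenance DNA methyltransferase, had 260 and 167 CPM in the control libraries, 94.2 and 127 CPM upon silencing *TRPS1* and 85.9 and 132 CPM upon silencing *CHD4*. Both knockdowns were below both control libraries, with log2 fold changes of -0.94 ± 0.39 (adjusted p = 0.659) and -0.96 ± 0.43 (adjusted p = 0.792), the former at an unadjusted p of 0.0473. Without control siRNA replicate 1 they were -0.55 and -0.56. Lists here serve as description and were chosen with earlier results of these data known.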

How the data were processed

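Per the labels, RNA-seq was done on T47D cells 72 h after siRNA transfection (6 libraries) and TRPS1 ChIP-seq on 2 ChIP and 2 input libraries. The authors deposited whole-number read counts per gene, in 2 tables with identical control columns, and a list of peak positions on hg38. The study's methods name STAR for alignment of the RNA-seq reads, and the submitters' processing notes name CASAVA 1.8, BWA 0.7.12-r1039, MACS2 2.1.1 and HTSeq 0.9.0. Reads in exons shared between genes can be split or dropped by such counting, which touches the alpha and gamma genes. Peak heights and scores were not used.

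Counts of a gene listed in only 1 table were set to 0 in the libraries of the other. Totals ranged from 10333138 to 14668358 counts, and 0 entries named no gene. Genes with over 2 CPM (by library size, before TMM scaling) in at least 2 libraries of a comparison were tested with edgeR 4.0.16 in R 4.3.3 (TMM factors, quasi-likelihood F-test, prior count 0.125), two-sided, and called where p was under 0.05 before adjustment and the groups differed more than 2 times. Benjamini-Hochberg adjustment ran over all genes tested. Each SE was taken from the F statistic, as the absolute log2 fold change over its square root. The scripts were tested on simulated data. Named members were those nearest to a TRPS1 peak, the 3 with the highest counts per subcluster and the C-type genes, and other members are said to be named after their values were seen. Members, lists and comparisons were chosen with earlier results of these data known. Alternatives were edgeR's likelihood ratio test, DESeq2 1.42.0, other size factors, filters and prior counts, all 6 libraries in one fit, the replicate number as a block, and leaving out each library. Python 3.11.15 with matplotlib 3.10.9 drew the figures. Promoter windows, starts and spans came from RefSeq on GRCh38.p14, with no genome sequence used here. Intervals and floors cover counting error only. A list of intracellular partners is not reported here.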

Additional observations from a re-analysis of the deposited data

How the results depend on the processing

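With control against TRPS1 siRNA, the count of members called higher (0) became 2 with the likelihood ratio test, 2 with library sizes alone, 2 without a filter, 1 with over 2 CPM in every library, 4 with all 6 libraries in one fit, and 0 to 21 on leaving out 1 library each (lower, 0 to 1). With CHD4 siRNA it became 4, 2, 4, 2 and 4 in the same order, 1 with DESeq2, and 0 to 22 on leaving out 1 library each. Between the knockdowns leaving out 1 library gave 0 to 1. Calls over all genes are given in the same order of settings. Higher with TRPS1 siRNA were 471 and 490 of 12921, 635 of 18984, 333 of 11515 and 503 of 13269. Higher with CHD4 siRNA were 430 and 458 of 12918, 730 of 18973, 287 of 11501 and 490 of 13269, and 351 with DESeq2. The 21 and 22 came without control siRNA replicate 2. The library with the zeros was then the only control, and calls over all genes rose too. With over 2 CPM in every library, a filter that removes members low in control siRNA replicate 1, the median log2 fold change was 0.22 (TRPS1 siRNA) and 0.21 (CHD4 siRNA). By subcluster it was then 0.62 and 0.74 for 7 alpha genes, 0.13 and -0.10 for beta and 0.18 and 0.47 for gamma. On leaving out 1 library the median over the members tested ranged over 0.49 to 0.80, 0.35 to 0.72 and, between the knockdowns, -0.12 to 0.17. The log2 fold change of *TRPS1* was -0.85 with library sizes alone, -0.92 with over 2 CPM in every library and -1.34 to -0.61 without single libraries, that of *CHD4* -2.40 to -1.58. The log2 ratio of the alpha sums upon silencing *TRPS1* was 0.41 to 1.00 without single libraries, and that of the gamma sums 0.41 and 0.47 with library sizes alone. Counted by coordinates (250 bases before to 50 after each start), 1 peak, that at *PCDHB11*, overlapped a promoter, and 0 did with at least 50% of their length.

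Direction turned for members near 0. Leaving out single libraries upon silencing *TRPS1* gave -0.011 to 0.13 for *PCDHA3*, -0.45 to 0.39 for *PCDHAC2*, -0.12 to 0.52 for *PCDHB2*, -0.38 to 0.27 for *PCDHB13* and -0.43 to 0.070 for *PCDHGA10*. *PCDHAC2* was also -0.0054 without a filter, -0.0032 with over 0.5 CPM and -0.038 with the replicate block, and *PCDHB13* 0.040 with library sizes alone. Upon silencing *CHD4* the ranges were -0.12 to 0.52 for *PCDHB2*, -0.36 to 0.63 for *PCDHB3*, -0.88 to 0.072 for *PCDHB8*, -0.32 to 0.14 for *PCDHGA10* and -0.070 to 0.12 for *PCDHGC3*, with *PCDHGA10* at 0.028 with library sizes alone and *PCDHGC3* at -0.0075 with over 0.5 CPM. Between the knockdowns *PCDHA11* ranged over -0.21 to 0.39. Apart from those whose construction shows it, the cause was not tested.

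The replicate number as a block gave 9 members called higher with TRPS1 siRNA, where 741 of 12921 genes were, against 349 without it. With CHD4 siRNA it gave 7, where 582 of 12918 genes were, against 336. *PCDHA8* and *PCDHA10*, which passed the filter only through the knockdown libraries, were among both. Between the knockdowns 0 members were called, where 305 genes were called higher and 230 lower. There 6 members had an unadjusted and 2 an adjusted p under 0.05 with fold changes under 2, against 0 and 0 without the block. How many of all genes passed these p thresholds with the block was not counted, so the 6 and 2 say nothing particular to the members. Over 13269 genes, with 2 pairs each, the deviations of same-numbered libraries correlated at 0.0741 (control and TRPS1 siRNA) and 0.0153 (control and CHD4 siRNA). Between TRPS1 and CHD4 siRNA they correlated at 0.631. The labels state no pairing and it was not taken as given, but the comparison between the knockdowns depends on that choice. Depth limits members at a few CPM most, and with 2 libraries per group a count of calls turned on control siRNA replicate 1, as given above.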

Other observations

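Pseudogenes of the locus were counted as well, and belong to no comparison above. *PCDHB17P* had 162 and 61 counts in the control libraries, 55 and 107 upon silencing *TRPS1* and 82 and 115 upon silencing *CHD4*, and the groups overlapped. *PCDHB18P* had 11 and 26 counts in the control libraries, 35 and 37 upon silencing *TRPS1* and 19 and 22 upon silencing *CHD4*. *PCDHB19P* had 0 and 16 counts in the control libraries, 29 and 43 upon silencing *TRPS1* and 22 and 25 upon silencing *CHD4*. *PCDHGB8P* had 6 and 58 counts in the control libraries, 77 and 93 upon silencing *TRPS1* and 31 and 72 upon silencing *CHD4*. Control siRNA replicate 1 was the lowest library for the last 3 of these, as for most alpha and gamma genes, and the highest for *PCDHB17P*. Reads shared with near-identical beta and gamma genes make these counts uncertain.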
